A study of Mus musculus with 1248 samples.

Results

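The cells described here were 4T1 tumour cells recovered from mouse bone at day 10 and day 16 after injection, split into cycling and non-cycling cells by the level of 4 proliferation genes. A cell entered when its library held at least 1000 detected genes and at least 50000 gene counts, and when the keratin genes Krt8 and Krt18 together exceeded the sum of 10 blood-cell genes in CPM, a cell's counts of a gene scaled to a common gene total. It was called cycling when Mki67, Top2a, Ccnb1 and Ube2c summed to at least 200 CPM and non-cycling when they summed to less than 30 CPM. Of 1248 cells in 7 groups, 288 came from 4T1 bone tumours at the 2 days, 125 of these met the keratin rule, and 96 fell in a class. At day 10 these were 34 cycling and 10 non-cycling cells, with 10 in between. At day 16 they were 8 cycling and 44 non-cycling cells, with 19 in between.

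All these cells descended from 4T1, a metastatic mammary carcinoma line of BALB/c mice, carrying firefly luciferase and mCherry. The line was injected into the heart of female BALB/c mice, hindlimbs were taken at day 10 or day 16, mCherry-positive cells were sorted into plate wells, and wells whose mCherry qPCR gave a Ct above 30 were discarded. Both classes at both days share this line, host, route, organ and sort. The labels name no animal, plate or culture for a cell, so each day is 1 sample, cells are not replicates, and no test or p-value is given. The mice's age was not stated.

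A dividing cell copies its DNA in S phase and separates it in mitosis, and each stage uses its own transcripts. Cyclins activate cyclin-dependent kinases, and the retinoblastoma and E2F proteins control many genes of replication. Cells outside the cycle lack most of these transcripts, and non-dividing disseminated tumour cells in bone are studied because they can outlast treatments aimed at division. Mki67 encodes the proliferation antigen Ki-67, Top2a a topoisomerase that untangles DNA, Ccnb1 the mitotic cyclin B1, and Ube2c the ubiquitin-conjugating enzyme of the anaphase-promoting complex.

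The cells were chosen by their summed level of these 4 genes, so the values of the genes are a description. Their sum had a median of 510 CPM in cycling cells and 7.49 CPM in non-cycling cells at day 10. At day 16 the medians were 704 CPM in cycling cells and 5.32 CPM in non-cycling cells. The lowest cycling cell held 205 CPM at day 10 and 513 CPM at day 16, and the highest non-cycling cell held 26.1 CPM at day 10 and 26.7 CPM at day 16. The cells between the limits spanned 32.7 to 169 CPM at day 10 and 32.5 to 198 CPM at day 16. The split was less clean at day 10, where 18 cells lay between 100 and 400 CPM, against 6 at day 16. All 4 genes exceeded 20 CPM in 17 of 34 cycling cells at day 10, in 3 of 8 at day 16, and in 0 non-cycling cells of either day. Both classes carried the epithelial keratins: Krt8 had a median of 3000 CPM in cycling and 3352 CPM in non-cycling cells at day 10, and of 4223 CPM in cycling and 2663 CPM in non-cycling cells at day 16.

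Several wells stood apart, and some of the results below are therefore also given without them. The others are over all wells. In 2 of the 8 cycling cells of day 16 the call rested on Mki67 alone. Their Mki67 was 533 and 690 CPM, while Top2a, Ccnb1 and Ube2c did not exceed 1.85 CPM in either, and 19.8% and 22.6% of their counts were mitochondrial. Their summed levels of a G2 and M phase gene list were 843 and 3029 CPM, the lowest of the 8. Another 2 of the 8 carried RNA of blood cells, with 2970 and 2471 CPM over the 10 blood-cell genes and 62213 and 75858 CPM over the neutrophil marker list. At day 10, 9 of 34 cycling cells and 0 of 10 non-cycling cells held at least 300 CPM of the blood-cell genes. Also at day 10, 1 non-cycling well held 53.0 CPM of keratins beside 1452 CPM of the endothelial gene Pecam1 and 674 CPM of Kdr, and its mCherry was 10.4 CPM. Wells within limits, meaning under 300 CPM of blood-cell genes, at most 15% mitochondrial counts and at least 200 CPM of keratins, numbered 24 cycling and 8 non-cycling at day 10, and 4 cycling and 39 non-cycling at day 16.

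Depth differed little between the classes. The median total was 3153510 counts in cycling and 3103530 counts in non-cycling cells at day 10, and 2684034 in cycling and 2841175 in non-cycling cells at day 16. The neutrophil list summed to 311, 390 and 147281 CPM (lowest, median and highest) in cycling cells and 393, 488 and 1157 CPM in non-cycling cells at day 10, and to 248, 778 and 75858 CPM in cycling cells and 318, 1227 and 115367 CPM in non-cycling cells at day 16. The stromal and endothelial list had a median of 25.8 CPM in cycling and 105 CPM in non-cycling cells at day 10, and of 14.4 CPM in cycling and 78.3 CPM in non-cycling cells at day 16. Only 1 of its 13 genes had a median above 5 CPM in non-cycling cells at each day. Median sums of the B cell and T and NK cell lists stayed below 8 CPM, and every erythroid gene had a median of 0 in both classes. In the summed counts used for the gene ratios, 12 of 15 neutrophil, 8 of 9 blood-cell and 6 of 11 macrophage genes were at least 2-fold higher in cycling cells at day 10, and 7 neutrophil genes were so at both days. With wells within limits 0 of those still measured were. Among all genes measured over all wells, 12.6% were higher in cycling cells at day 10 and 4.36% at both days. The 6 stromal and endothelial genes measured were all lower in cycling cells at day 10. Without the non-cycling well under 200 CPM of keratins only 2 of them were still measured, both lower at day 10. The part of these transcripts in the gene results was not tested beyond leaving out wells.

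The share of cycling cells was 62.96% at day 10 (34 of 54, exact 95% binomial interval 48.7 to 75.7%) and 11.27% at day 16 (8 of 71, 4.99 to 21.0%). Non-cycling cells made up 18.5% at day 10 (9.25 to 31.4%) and 62.0% at day 16 (49.7 to 73.2%). The intervals of the 2 days do not overlap for either class, and they cover counting error only, with 1 sample a day. By the same rule 118 of 138 4T1 bone cells of day 4 and 49 of 54 cultured 4T1 cells were cycling, against 12 of 86 in fat pad tumours of day 22. With cycling from 100 CPM the day 16 share was 19.7%, and without cells of at least 1000 CPM of Epcam it was 6.12%. Whether animals differed could not be told apart from the day.

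**Figure D1:**
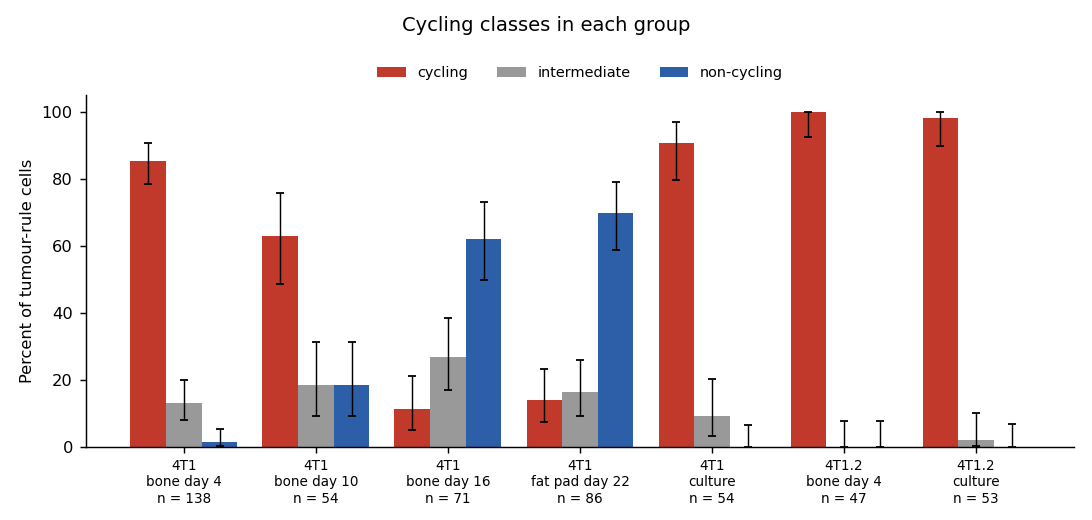
Share of cycling, intermediate and non-cycling cells (percent of cells meeting the keratin rule) in each of the 7 groups, with exact 95% binomial intervals. Cycling cells made up 62.96% at day 10 and 11.27% at day 16 in 4T1 bone tumours.

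Promoters of 4 genes of the mitotic programme are shown because the genes of this programme moved together, and because their windows hold the letters searched for. Ccnb1 and Ube2c are genes of the rule, so their movement with the classes was set by the choice of cells. The windows, from RefSeq on GRCm38.p6, run from 150 bases before to 30 after the annotated start and read 5′ to 3′ on the gene's strand. Those of Cdk1 (chr10:69352883-69353062), Ccnb2 (chr9:70421525-70421704) and Ccnb1 (chr13:100786457-100786636) lie on the minus strand, and that of Ube2c (chr2:164769779-164769958) on the plus strand. Capitals mark, on either strand, CCAAT as the letters of the box of that name, TTTGAA with its variant form TTTAAA as letters of the cell cycle homology element, and TTTNNCGC as letters of an E2F site.
Cdk1: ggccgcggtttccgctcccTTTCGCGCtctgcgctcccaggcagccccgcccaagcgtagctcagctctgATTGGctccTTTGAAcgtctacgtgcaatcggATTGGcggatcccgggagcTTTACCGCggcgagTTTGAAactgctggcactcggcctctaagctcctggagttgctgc
Ccnb2: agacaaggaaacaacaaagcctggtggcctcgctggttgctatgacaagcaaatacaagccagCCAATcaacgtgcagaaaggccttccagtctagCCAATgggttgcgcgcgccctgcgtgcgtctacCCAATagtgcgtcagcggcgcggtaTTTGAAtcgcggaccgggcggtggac
Ccnb1: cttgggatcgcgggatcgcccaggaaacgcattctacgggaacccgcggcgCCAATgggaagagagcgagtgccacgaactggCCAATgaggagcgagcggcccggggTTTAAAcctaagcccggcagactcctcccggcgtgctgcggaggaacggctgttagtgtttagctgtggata
Ube2c: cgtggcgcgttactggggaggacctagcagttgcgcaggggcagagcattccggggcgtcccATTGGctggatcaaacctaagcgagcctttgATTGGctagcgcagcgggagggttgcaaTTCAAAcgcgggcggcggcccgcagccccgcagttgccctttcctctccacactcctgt

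The Cdk1 window holds 2 CCAAT and 2 TTTGAA matches, Ccnb2 holds 3 CCAAT and 1 TTTGAA, Ccnb1 holds 2 CCAAT and 1 TTTAAA, and Ube2c holds 2 CCAAT and 1 TTTGAA. At least 1 CCAAT was found for 43 of 59 matched genes of a G2 and M phase list (72.9%), 32 of 60 of an S phase list (53.3%), 89 of 271 genes lower in cycling cells at both days (32.8%), 34.0% of the measured genes and 30.3% of all 27025 genes. TTTGAA or its variant TTTAAA was found for 39 genes of the G2 and M list (66.1%), 15 of the S list (25.0%), 32 of the lower genes (11.8%), 12.0% of the measured genes and 18.8% of all. TTTNNCGC was found for 11.9% of the G2 and M list, 28.3% of the S list, 4.06% of the lower genes, 6.85% of the measured genes and 3.86% of all. TTTAAA reads the same on both strands, matches of the TTT motifs may overlap, and each motif was counted once per gene. A match describes letters only.

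Counts were summed over the cells of each day and class and expressed as CPM scaled by TMM factors. The measure is the log2 ratio of cycling to non-cycling sums after adding 5 CPM to each, and a gene was called when it differed at least 2-fold. Of 10078 genes with a mean of at least 5 CPM, 12.6% were higher and 13.3% lower in cycling cells at day 10, and 11.9% were higher and 13.2% lower at day 16. Called in both days were 439 genes higher (4.36%) and 352 lower (3.49%), and 174 (1.73%) were called in opposite directions. The median over all genes was 0.01 at day 10 and -0.06 at day 16. For sums of at least 20 CPM the exact Poisson 95% interval reached at most 10.3% above the value, which covers counting error only.

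Of the 72 genes of the G2 and M phase list, none of which the rule used, 65 were at least 2-fold higher in cycling cells at day 10 and 72 at day 16, against 12.6% and 11.9% of all genes. Ccnf, an F-box cyclin, ran against the list at day 10, with a log2 ratio of -0.82, and had 2.13 at day 16. The list's median log2 ratio was 2.84 at day 10 and 3.74 at day 16, and 2.88 and 4.01 with wells within limits. At day 10 its sum per cell was 2458, 6270 and 16867 CPM (lowest, median and highest) in cycling cells and 527, 1212 and 2444 CPM in non-cycling cells. The groups did not overlap at day 10. At day 16 it was 843, 10016 and 19983 CPM in cycling cells and 364, 1344 and 2326 CPM in non-cycling cells, and 1 cycling cell, the lowest, lay inside the non-cycling range. The list was measured in the cells that the 4 genes chose, so these counts are a description.

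Ccna2, the cyclin of S and G2 phase, led the genes higher at both days when these were ordered by the smaller of their day ratios. Its summed level was 280 CPM in cycling and 2.51 CPM in non-cycling cells at day 10 (log2 ratio 5.24), and 412 CPM in cycling and 0.896 CPM in non-cycling cells at day 16 (6.14). Per cell it was 0.356, 212 and 837 CPM in cycling and 0.60, 2.41 and 5.42 CPM in non-cycling cells at day 10. At day 16 it was 2.69, 225 and 922 CPM in cycling and 0, 0.725 and 2.57 CPM in non-cycling cells. At day 10, 33 of 34 cycling cells exceeded the highest non-cycling cell, and at day 16, 8 of 8 did, the lowest with 2.69 against 2.57 CPM. At least 20 CPM of Ccna2 were found in 33 of 34 cycling cells at day 10 and in 6 of 8 at day 16.

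The kinase Cdk1, which drives mitosis with cyclin B, was at 193 CPM in cycling and 30.3 CPM in non-cycling cells at day 10 (log2 2.49), and at 292 CPM in cycling and 18.1 CPM in non-cycling cells at day 16 (3.69). Ccnb2, a second B-type cyclin, had log2 ratios of 2.84 and 5.38. Aurkb, kinase of the chromosomal passenger complex, had 4.19 and 4.57, its partner Birc5 had 4.03 and 5.39, and Incenp of the same complex had 3.42 and 3.64. Plk1, another mitotic kinase, had 3.20 and 3.99, and the spindle factor Tpx2 had 4.01 and 4.84. Cdk1 overlapped between classes: the highest non-cycling cell held 153 CPM at day 10 and 130 CPM at day 16.

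Spc24, a kinetochore protein in neither cell cycle list, separated the classes at day 10, with 47.9, 114 and 231 CPM (lowest, median and highest) in cycling and 0, 0.672 and 29.4 CPM in non-cycling cells. All 34 cycling cells exceeded the highest non-cycling cell. At day 16, 3 of 8 did. Among the others that the naming rule drew from outside both lists were Pclaf, a PCNA-binding protein (log2 3.90 and 5.01), the condensin subunit Ncaph (3.12 and 3.67), the kinetochore scaffold Knl1 (2.95 and 3.43), the cohesin acetyltransferase Esco2 (2.82 and 2.90) and the centriole kinase Plk4 (3.07 and 3.03).

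Genes of S phase were higher as well, but less evenly. Of 73 measured genes of the S phase and replication list, 63 were at least 2-fold higher and 1 lower at day 10, and 57 higher and 0 lower at day 16, 50 of them higher at both. Among all genes 12.6% were higher at day 10, 11.9% at day 16 and 4.36% at both. The median log2 ratio of the S phase list was 1.7 at day 10 and 1.54 at day 16, and 1.64 and 1.87 within limits. Rrm2, a subunit of ribonucleotide reductase, was at 454 CPM in cycling and 12.6 CPM in non-cycling cells at day 10 (log2 4.71), and at 290 CPM in cycling and 3.6 CPM in non-cycling cells at day 16 (5.10). Mcm5, of the replicative helicase, had log2 ratios of 1.79 and 4.21. Pcna, the sliding clamp of DNA polymerase, differed by 1.36 at day 10, with 468 CPM in cycling and 179 CPM in non-cycling cells, and by 0.32 at day 16, with 203 CPM in cycling and 162 CPM in non-cycling cells.

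The S phase sum reached 3000 CPM in 31 of 34 cycling and 2 of 10 non-cycling cells at day 10, and in 6 of 8 cycling and 1 of 44 non-cycling cells at day 16. The S phase sum exceeded the G2 and M sum in 17 of 34 cycling and 8 of 10 non-cycling cells at day 10, and in 2 of 8 cycling and 28 of 44 non-cycling cells at day 16. Gene lengths differ between the lists, so these counts compare cells and not the lists. The cells between the limits had median sums of 1624 CPM for G2 and M and 4297 CPM for S phase at day 10, and 1328 CPM and 2003 CPM at day 16.

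**Figure D2:**
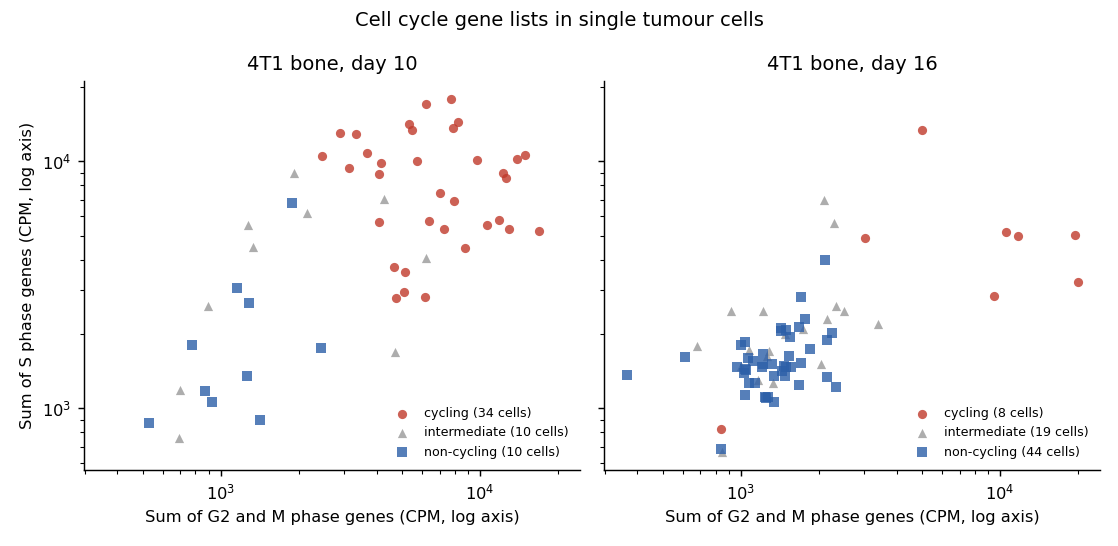
Summed CPM of the G2 and M list (72 genes) against that of the S phase list (78 genes) for each cell of day 10 and day 16, by class. The 34 cycling cells of day 10 sit above all 10 non-cycling cells on the G2 and M axis, and 1 cycling cell of day 16 lies among the non-cycling ones.

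Regulators of entry into the cycle moved less than its machinery. Of 9 measured genes in a list of D-type cyclins, their kinases and Myc, 4 were higher and 0 lower at day 10 and 1 higher and 0 lower at day 16, and within limits 2 were higher at day 10. Among all genes 12.6% were higher at day 10 and 11.9% at day 16. The cyclin Ccnd1 was at 1025 CPM in cycling and 572 CPM in non-cycling cells at day 10 (log2 0.84), and at 899 CPM in cycling and 374 CPM in non-cycling cells at day 16 (1.25). The other D-type cyclins and Cdk4 passed 2-fold at day 10 and not at day 16: Ccnd2 had log2 ratios of 1.32 and -0.78, Cdk4 1.04 and -0.03, and Ccnd3 1.01 and -0.14. Cdk6 had 0.26 and -0.83 and Myc had -0.11 and 0.23. Ccne2, a cyclin of the start of S phase, had 2.13 and 2.73, Ccne1 had 1.58 and -0.40, and E2f1 had 1.16 and 0.09. The day 16 ratios of Ccne2 and Ccne1 rested on few cells. Ccne2 had a median of 0.156 CPM in cycling cells, the highest holding 251 and 36.0 CPM. Its day 16 ratio was 1.25 with at most 15% mitochondrial counts. Ccne1 had a median of 0 in both classes, and the highest non-cycling cells held 90.4 and 2.09 CPM. With wells within limits the day 10 ratios of Cdk4, Ccnd3 and E2f1 were 0.86, 0.69 and 0.75, under 2-fold. The day 16 ratio of Ccnd2 was -3.90 within limits and 0.55 without cells of at least 1000 CPM of Epcam.

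CDK inhibitors were not uniformly higher in non-cycling cells. In a list of 34 measured genes of inhibitors and growth arrest, 3 were higher and 9 lower at day 10 and 1 higher and 8 lower at day 16, 4 lower at both, with medians of -0.42 and -0.28. Over all genes 13.3% were lower at day 10, 13.2% at day 16 and 3.49% at both. Cdkn1a, encoding p21, was at 263 CPM in cycling and 303 CPM in non-cycling cells at day 10 (log2 -0.20), and at 280 CPM in cycling and 196 CPM in non-cycling cells at day 16 (0.50). The day 10 value rested on the low-keratin well, which held 1343 CPM, and without that well it was 0.92. Cdkn1b, encoding p27, had -0.64 and 0.44, or -2.64 at day 16 without cells of at least 1000 CPM of Epcam, Cdkn2c, encoding p18, had -0.15 and -0.13, and Cdkn2d, encoding p19, had 1.17 and 0.99, or 0.98 at day 10 without wells of at least 300 CPM of blood-cell genes. Cdkn1c and Cdkn2b did not reach the 5 CPM minimum.

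Among genes of growth arrest that were lower in cycling cells, Plk2, a kinase induced by stress, had log2 ratios of -2.16 and -2.03, but its day 10 ratio was -0.23 within limits. Foxo1, a transcription factor restrained by growth factor signalling, had -1.31 and -1.68, and its day 16 ratio was 0.18 when cycling began at 100 CPM. Nr2f1, an orphan nuclear receptor studied in dormant tumour cells, was at 3.95 CPM in cycling and 28.5 CPM in non-cycling cells at day 10 (log2 -1.90), and at 2.32 CPM in cycling and 25.6 CPM in non-cycling cells at day 16 (-2.06). It exceeded 5 CPM in 9 of 34 cycling and 4 of 10 non-cycling cells at day 10 and in 1 of 8 cycling and 24 of 44 non-cycling cells at day 16. Its day 16 ratio was 0.95 when cycling began at 100 CPM.

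Outside the cell cycle, 7 of 15 measured serine and one-carbon genes were at least 2-fold higher and 0 lower in cycling cells at day 10, against 12.6% and 13.3% of all genes. At day 16, 7 were higher and 1 lower, against 11.9% and 13.2%, and the medians were 0.82 and 0.39. Without cells of at least 1000 CPM of Epcam 3 were higher and 4 lower at day 16, with a median of 0.08. Phgdh, the entry enzyme of serine synthesis, was at 604 CPM in cycling and 178 CPM in non-cycling cells at day 10 (log2 1.73), and at 381 CPM in cycling and 163 CPM in non-cycling cells at day 16 (1.2, or 0.80 with cells weighted equally). Psat1, the next enzyme, was at 258 CPM in cycling and 32.0 CPM in non-cycling cells at day 10 (2.83), and at 47.1 CPM in cycling and 9.89 CPM in non-cycling cells at day 16 (1.81). It exceeded the highest non-cycling cell in 23 of 34 cycling cells at day 10 and in 1 of 8 at day 16, and without cells of at least 1000 CPM of Epcam its day 16 ratio was -1.55. Shmt1, a serine hydroxymethyltransferase, had log2 ratios of 2.03 and 2.14, and the folate enzyme Mthfd2 had 1.58 and 1.31, with 0.24 at day 16 within limits.

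Other growth lists were higher mainly at day 10. For scale, 12.6% of all genes were higher and 13.3% lower at day 10, and 11.9% higher and 13.2% lower at day 16. Ribosome biogenesis had 10 of 27 genes higher and 1 lower at day 10 and 2 higher and 0 lower at day 16 (medians 0.74 and 0.28), with Nhp2, a small nucleolar RNP protein, at 2.00 and 0.59. Nucleotide synthesis had 8 of 21 higher and 0 lower at day 10 and 2 higher and 2 lower at day 16 (0.74 and -0.06), with Umps of pyrimidine synthesis at 2.03 and 1.13, or 0.74 at day 16 without cells above 15% mitochondrial counts. Ribosomal protein genes had medians of 0.55 and -0.11, and nuclear respiratory chain genes of 0.66 and 0.09. The difference between the days was not tested, and cycling cells of day 16 number 8.

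The matrix metalloproteinases Mmp13 and Mmp3 were higher in the sums, Mmp13 only in some cells. Mmp13, collagenase 3, had log2 ratios of 3.03 and 2.52 and exceeded 5 CPM in 14 of 34 cycling and 0 of 10 non-cycling cells at day 10, and in 4 of 8 cycling and 7 of 44 non-cycling cells at day 16. Without cells of at least 1000 CPM of Epcam its day 16 ratio was -1.06. Mmp3, stromelysin 1, had 2.49 and 2.89, and 0.61 at day 16 without the same cells. Its median per cell was 219 CPM in cycling and 3.53 CPM in non-cycling cells at day 10. At day 16 the Mmp3 medians were 360 CPM in cycling and 2.77 CPM in non-cycling cells. In fat pad tumours Mmp13 ran the other way, at 24.3 CPM in 12 cycling and 98.2 CPM in 60 non-cycling cells (-1.82), and Mmp3 had -0.87.

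The genes lower in cycling cells at both days included secreted and matrix products. Genes of other kinds were lower too, such as Arhgef25, with log2 ratios of -2.36 and -2.32, and Lipa, with -2.34 and -2.55. For Rnf122, 34 of 34 cycling cells at day 10 and 7 of 8 at day 16 lay below the non-cycling median. Pdgfrl, a receptor-like protein, was at 31.0 CPM in cycling and 319 CPM in non-cycling cells at day 10 (log2 -3.17), and at 29.2 CPM in cycling and 299 CPM in non-cycling cells at day 16 (-3.15). Per cell it was 0, 1.02 and 244 CPM (lowest, median and highest) in cycling and 1.02, 122 and 1429 CPM in non-cycling cells at day 10. At day 16 it was 0, 5.54 and 81.4 CPM in cycling and 0, 213 and 1161 CPM in non-cycling cells. The ranges overlapped, with 32 of 34 cycling cells at day 10 and 8 of 8 at day 16 below the non-cycling median of their day.

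Cp, encoding the ferroxidase ceruloplasmin, was at 64.2 CPM in cycling and 468 CPM in non-cycling cells at day 10 (log2 -2.77), and at 70.6 CPM in cycling and 1108 CPM in non-cycling cells at day 16 (-3.88). Mgp, a calcification inhibitor of the matrix, had log2 ratios of -2.78 and -2.98. Wisp2, a secreted CCN-family protein, exceeded 5 CPM in 2 of 34 cycling and 6 of 10 non-cycling cells at day 10 and in 0 of 8 cycling and 24 of 44 non-cycling cells at day 16 (log2 -2.95 and -5.15). Within limits Cp had -3.65 and -6.45 and Wisp2 had -3.73 and -5.21.

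Spp1, osteopontin, a secreted phosphoprotein of bone and of many tumours, was abundant in both classes and lower in cycling cells. Its summed level was 4619 CPM in cycling and 16637 CPM in non-cycling cells at day 10 (log2 -1.85), and 10635 CPM in cycling and 28718 CPM in non-cycling cells at day 16 (-1.43). Per cell it was 184, 4077 and 17750 CPM in cycling and 98.2, 15523 and 41357 CPM in non-cycling cells at day 10, the lowest of the non-cycling values being the low-keratin well. At day 16 it was 165, 6094 and 21778 CPM in cycling and 3790, 22360 and 85688 CPM in non-cycling cells. The classes overlapped, but 33 of 34 cycling cells at day 10 and 8 of 8 at day 16 lay below the non-cycling median. Within limits the log2 ratios were -2.10 and -1.37. Over the 20 alternatives the day 16 ratio of Spp1 ran from -3.02 to -0.91, the latter under 2-fold. Macrophages also express Spp1, and the macrophage and monocyte list had a median of 182 CPM in cycling and 202 CPM in non-cycling cells at day 10, and of 540 CPM in cycling and 449 CPM in non-cycling cells at day 16.

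**Figure D3:**
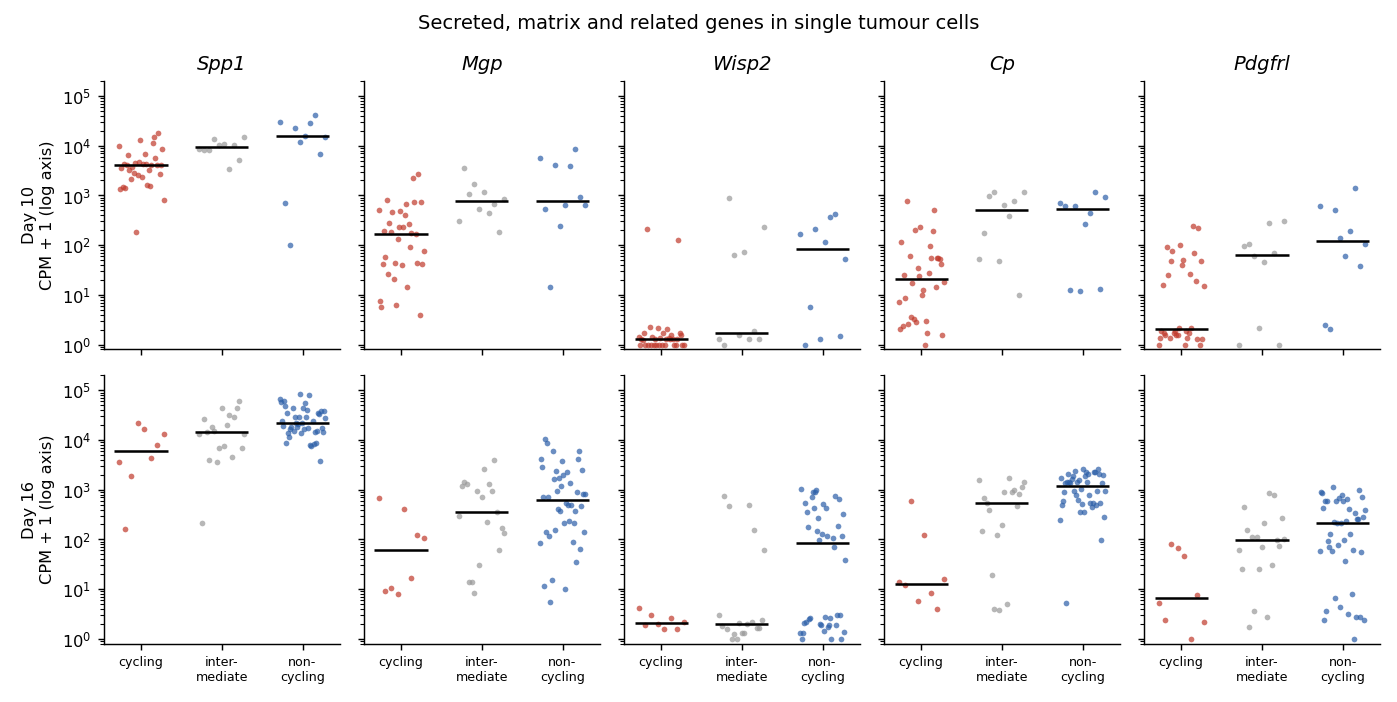
CPM per cell plus 1 of Spp1, Mgp, Wisp2, Cp and Pdgfrl, on a log axis, in cycling, intermediate and non-cycling cells of each day, with a bar at the median. For Pdgfrl 32 of 34 cycling cells at day 10 and 8 of 8 at day 16 lie below the non-cycling median, and the classes overlap in range for each gene.

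Of 9 measured bone metastasis and osteoclast genes, 2 were higher and 3 lower at day 10 and 1 higher and 5 lower at day 16, 3 lower at both. Among all genes 12.6% were higher and 13.3% lower at day 10, 11.9% higher and 13.2% lower at day 16, and 3.49% lower at both. Pthlh, which encodes a hormone-like activator of bone resorption, had log2 ratios of 1.13 and -0.34, with 0.85 at day 10 within limits and -2.70 at day 16 without cells of at least 1000 CPM of Epcam. Of 25 mesenchymal and matrix genes, 2 were higher and 10 lower at day 10 and 5 higher and 10 lower at day 16. Fn1, fibronectin, had -2.37 and -1.86, Sparc, a matrix-binding protein, had -2.01 and -1.77, and the adhesion molecule Vcam1 had -1.82 and -3.12. Without cells of at least 1000 CPM of Epcam the day 16 ratios of Fn1 and Sparc were -0.71 and -0.87. The stromal and endothelial marker list had its higher median in the same cells, 105 CPM at day 10 and 78.3 CPM at day 16 in non-cycling cells. At each day only 1 of its 13 genes had a median above 5 CPM in these cells. The part of this list in these ratios was not tested.

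The NF-kB and inflammatory list had 2 of 23 genes higher and 6 lower at day 10 and 1 higher and 14 lower at day 16, 6 lower at both, with medians of -0.45 and -1.18, and of -0.25 and -1.61 within limits. Tnfaip3, a feedback inhibitor of NF-kB, had -2.68 and -1.18, and Nfkbiz, a nuclear inhibitor of the family, had -2.09 and -1.11. The inhibitor Nfkbia had -2.04 and -1.29, but its day 10 ratio was 0.57 without the low-keratin well, and that of the adhesion molecule Icam1 was 0.38 instead of -2.47. Glycolysis and hypoxia genes had 4 of 35 higher and 7 lower at day 10 and 0 higher and 16 lower at day 16, with medians of 0.08 and -0.91. Beside both lists, 12.6% of all genes were higher and 13.3% lower at day 10. At day 16 these shares were 11.9% and 13.2%, and 3.49% of all genes were lower at both days. Car9, a hypoxia-induced carbonic anhydrase, had -1.25 and -2.46, and P4ha2, a collagen prolyl hydroxylase, had -1.55 and -3.78. At day 10 the P4ha2 median was 0.884 CPM in cycling and 0.157 CPM in non-cycling cells. The highest non-cycling cells of that day held 202 and 111 CPM of P4ha2.

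Among the other lists, cholesterol and fatty acid synthesis had 2 of 26 genes higher and 1 lower at day 10 and 9 higher and 1 lower at day 16. Without cells of at least 1000 CPM of Epcam it had 4 higher and 12 lower at day 16, with a median of -0.70 against 0.33 over all cells. TGF-beta and BMP response genes had 0 of 22 higher and 7 lower at day 10 and 1 higher and 3 lower at day 16. Among all genes 12.6% were higher and 13.3% lower at day 10, and 11.9% higher and 13.2% lower at day 16. Heat shock genes had medians of 0.08 and -0.16 and NRF2 genes of 0.16 and -0.02. Immediate early genes, which respond to dissociation and stress, had 2 of 34 higher and 7 lower at day 10, against 12.6% and 13.3% of all genes, and 2 higher and 5 lower at day 16. Without the low-keratin well 4 were higher and 3 lower at day 10, and the median turned to 0.25 against -0.25 over all wells.

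**Figure D4:**
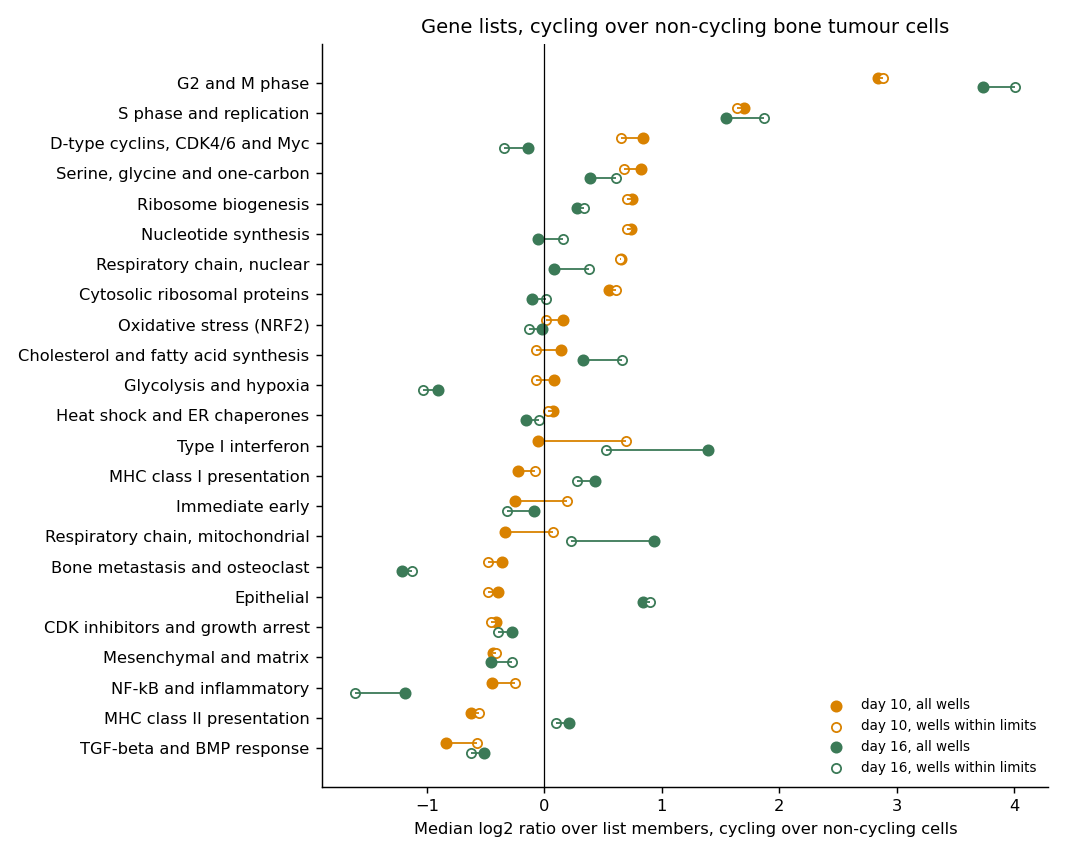
Median log2 ratio (cycling over non-cycling) of 23 gene lists at day 10 and day 16, over all wells and over wells within limits. The G2 and M list stands furthest to the right, at 2.84 and 3.74 over all wells.

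Epithelial genes set the classes apart at day 16 more than at day 10, a difference that was not tested. Epcam, an epithelial adhesion molecule, had log2 ratios of -0.84 at day 10 and 1.26 at day 16, and 0.97 at day 16 within limits. At day 16 its median per cell was 1218 CPM in cycling and 17.6 CPM in non-cycling cells, and at least 1000 CPM were found in 5 of 8 cycling, 8 of 44 non-cycling and 9 of 19 in-between cells. No cell of day 10 reached that level. Krt7, a keratin of simple epithelia, had -0.81 and 2.56, and without cells of at least 1000 CPM of Epcam its day 16 ratio was -3.18, over 3 cycling and 36 non-cycling cells. Ly6a, a surface antigen of the Ly6 family, was at 504 CPM in cycling and 938 CPM in non-cycling cells at day 10 (-0.89, or -0.16 without the low-keratin well and 0.09 within limits), and at 2784 CPM in cycling and 267 CPM in non-cycling cells at day 16 (3.36, or 3.05 within limits). The epithelial list had medians of -0.40 and 0.84, and of -0.25 at day 16 without those cells.

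Interferon genes had 20 of 34 higher and 0 lower at day 16 and 8 higher and 3 lower at day 10, with medians of -0.05 at day 10 and 1.39 at day 16. Among all genes 11.9% were higher and 13.2% lower at day 16, and 12.6% higher and 13.3% lower at day 10. Without the low-keratin well 15 were higher and 3 lower at day 10, with a median of 0.72, and within limits the day 10 median was 0.69. Without wells of at least 300 CPM of blood-cell genes the day 16 median was 0.18, and within limits it was 0.52. Ifit3, an interferon-induced gene, exceeded 5 CPM in 2 of 8 cycling and 3 of 44 non-cycling cells at day 16, where its log2 ratio was 3.35 over all wells and 0.52 within limits. Mitochondrially encoded genes had a median of 0.93 at day 16 over all wells and 0.22 within limits.

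Cells were sorted on mCherry, so reporter levels describe cells that passed that gate. mCherry had a median of 532 CPM in cycling and 915 CPM in non-cycling cells at day 10, and of 2356 CPM in cycling and 578 CPM in non-cycling cells at day 16. The luciferase reporter had a median of 96.4 CPM in cycling and 118 CPM in non-cycling cells at day 10, and of 4.50 CPM in cycling and 81.1 CPM in non-cycling cells at day 16. It was under 10 CPM in 5 of 8 cycling and 10 of 44 non-cycling cells of day 16. Median reporter and Epcam levels both differed between the classes at day 16, but not together in every cell. Cycling cells with 2.69 and 3.70 CPM of luciferase held 33.7 and 10.2 CPM of Epcam and 3764 and 2459 CPM of mCherry. Those with 1246 and 1190 CPM of Epcam held 40.2 and 86.9 CPM of luciferase. The parts of reporter, Epcam and class cannot be told apart with 8 cycling cells.

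**Figure D5:**
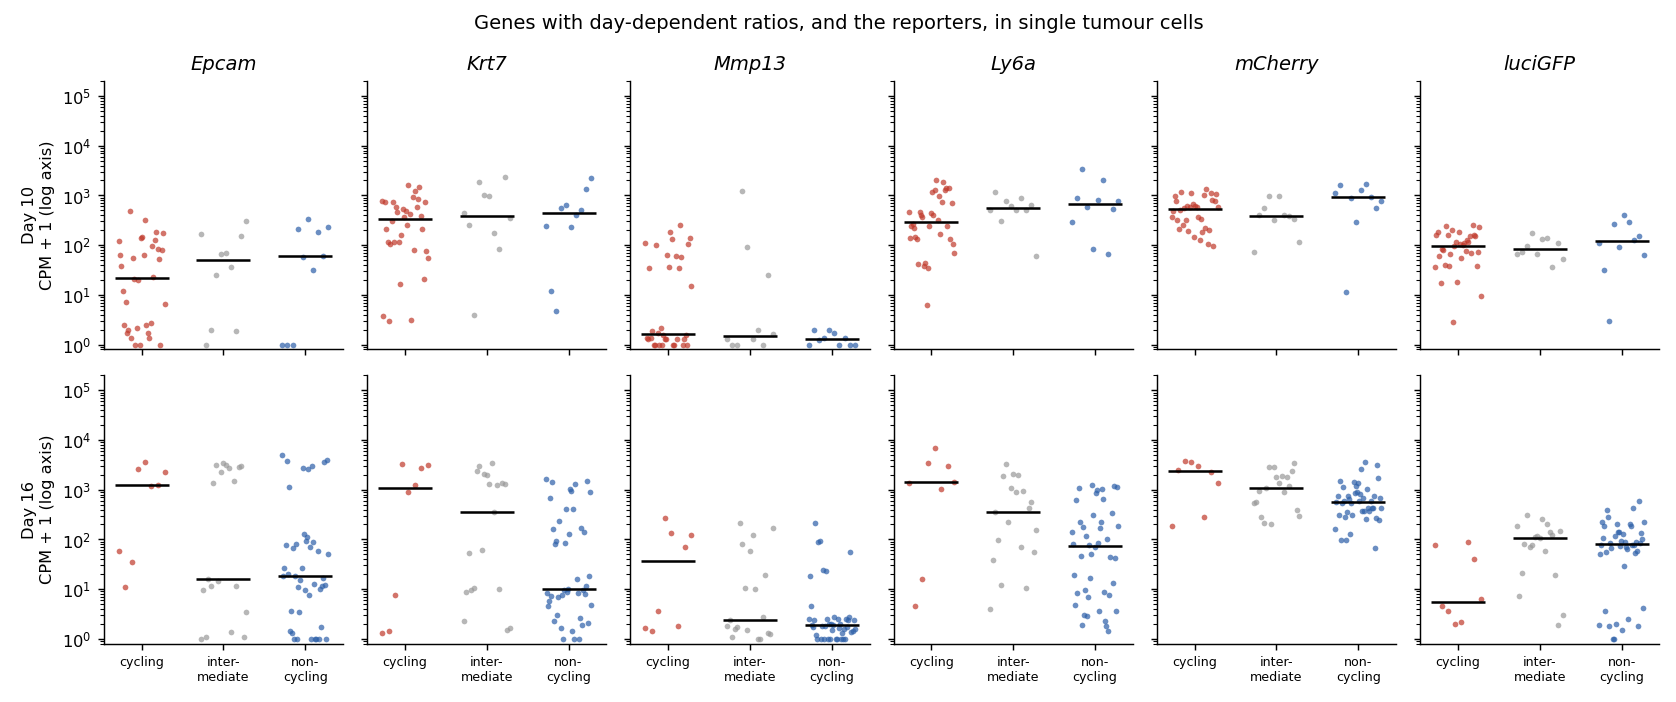
CPM per cell plus 1 of Epcam, Krt7, Mmp13, Ly6a and the reporters mCherry and luciGFP, on a log axis, in cycling, intermediate and non-cycling cells of each day, with a bar at the median. At day 16 the median of Epcam is 1218 CPM in cycling and 17.6 CPM in non-cycling cells.

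The bone genes were then read in fat pad tumours of day 22, with 12 cycling and 60 non-cycling cells by the same rule, as a comparison chosen after the bone values were known. There 7.68% of 9250 genes were at least 2-fold higher and 6.29% lower in cycling cells. Of the 439 genes higher at both days in bone, 394 were measured and 265 were higher (67.3%). The 439 include the 4 genes of the rule, which also split the fat pad cells, so their direction was set by that choice. Outside the cell cycle lists and the 4 rule genes 151 of 275 were higher (54.9%). Of the 352 lower at both days, 302 were measured and 77 were lower (25.5%). Psat1 was higher there too, with a log2 ratio of 3.23, while Wisp2 had -1.79, Pdgfrl -1.11 and Spp1 -0.43. Sparc and Vcam1 had ratios of 0.89 and 1.03 in the fat pad, the opposite sign to bone.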

How the data were processed

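Oligo-dT primed RNA of sorted cells was amplified by Smart-seq2 with modifications, per the labels. The authors deposited whole-number read counts per gene symbol, with a column per cell and no molecular identifiers. Per the submitters' processing notes, which give no roles, the build was mm10 and the tools were Seurat 3.1.2, R 3.6.2, STAR 2.6.0c, FastQC 0.11.7, featureCounts 1.6.2, Trim Galore 0.6.6 and SAMtools 1.7. The annotation and strand setting are not given in the sources used here. Spike-in and reporter entries and 4 repeated date-like symbols (0.0149% of counts) stayed out of totals. No pair of cells held identical values, wells share no barcodes, and no doublet caller was run.

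Counts were summed per day and class with Python 3.11.15, numpy 2.4.6 and pandas 2.3.3, and TMM factors were computed in R 4.3.3 by edgeR 4.0.16. DESeq2 1.42.0 size factors were an alternative. Intervals are exact, at 95%. The 4 class sums held between 20569395 and 117210643 counts. The code was tested on simulated data.

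Genes named by rule were the 12 furthest higher and 12 furthest lower at both days, the 12 furthest higher outside the cell cycle lists, the 6 at each end of the difference between days, members of each list furthest along its median, and a fixed list of regulators. Not every gene that met it is reported here. Genes outside this rule were chosen after their values were seen. The members and lists were chosen with earlier results of these data known. The fat pad comparison, 4 of the 20 alternatives and the choice of promoters shown were added after seeing the data.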

Additional observations from a re-analysis of the deposited data

Results flagged for a closer look

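The log2 ratio of cycling to non-cycling cells had opposite signs at day 10 and day 16, at least 2-fold in each, for 174 genes, 8 of them named here by rule, and the difference between the days was not tested. Higher in cycling cells at day 10 and lower at day 16 were Il1b, a cytokine of inflammation, with 2.92 and -2.26, Fiz1 with 2.00 and -2.86, the mitophagy receptor Bnip3 with 1.15 and -3.13, and the DNA repair scaffold Xrcc1 with 1.56 and -2.61. The Il1b value of day 10 rested on 6 of 34 cycling cells above 5 CPM, and under 300 CPM of blood-cell genes it was not measured. The highest cycling cell of day 10 held 1564 CPM of Il1b and the next 73.7 CPM. At day 16 the highest non-cycling cell held 2698 CPM and the next 20.9 CPM. Over the settings the day 16 ratio of Il1b ran from -2.73 to -0.09. Lower in cycling cells at day 10 and higher at day 16 were Ly6c1, with -1.64 and 2.72, and Gm23935 with -2.72 and 4.15. So were the kinase Tnik with -3.09 and 1.44, and the membrane transporter Slc4a11 with -2.49 and 1.74. With wells within limits Gm23935 had -0.60 and 0.12, and Ly6c1 had 0.54 and 2.79.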

How the results depend on the processing

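No paired analysis was possible because cell numbers shared between groups are only names, no animal is given and no result comes from a test. With a mean of at least 20 CPM, genes higher and lower numbered 699 and 833 at day 10, 707 and 747 at day 16, and 290 and 233 at both days. A pseudocount of 1 CPM gave 663 and 542 at both days, and 20 CPM gave 445 and 647 at day 10, 578 and 468 at day 16, and 196 and 105 at both. Without the highest cell of each gene and class they numbered 1942 and 492 at day 10 and 610 and 2168 at day 16, where removal takes more from the smaller class. With cycling from 100 CPM, 824 were lower at day 16 and 217 at both. With cycling from 400 CPM the share of cycling cells at day 10 was 37.0%, and over the settings that of day 16 ran from 6.12 to 19.7%. Under 1000 CPM of Epcam, with 3 cycling and 36 non-cycling cells, 2026 were higher and 3130 lower at day 16.

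Under at least 1 setting the sign turned for 13 of 166 gene values that were at least 2-fold and for 29 of 44 smaller ones, and for 2 of 19 list medians of at least 0.5 and 18 of 27 smaller ones. The cause was not tested, and the values that were at least 2-fold, or medians of at least 0.5, follow. At day 10 Icam1, Nfkbia and Ly6c1 had 0.14, 0.49 and 0.37 without the highest cell, 0.38, 0.57 and 0.61 with at least 200 CPM of keratins, and 0.20, 0.48 and 0.54 under the limits together. At day 16 Foxo1 and Nr2f1 had 0.18 and 0.95 with cycling from 100 CPM. Under 100 CPM of blood-cell genes Tnik had -1.24 and Ifit1 -0.15, and Ifit1 had -0.12 under 300 CPM and -0.10 under the limits together, where Lars2 had -0.31. Under 1000 CPM of Epcam the day 16 medians of the interferon and epithelial lists were -0.31 and -0.25, and Psat1 had -1.55, Asns -1.19, Mmp13 -1.06, Tnik -0.25, Krt7 -3.18, Ifit1 -0.15 and Ifit3 -0.43. Class sizes of 10 cells at day 10 and 8 at day 16, and 1 sample a day, limit every ratio.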
